A study of Mus musculus and Homo sapiens with 75 samples.

Results

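The LPS response of KO-52 cells carrying an empty vector (EV) was examined across all genes, in 6 of the 75 libraries of the series. KO-52 is a human acute myeloid leukaemia line with mutations in both copies of CEBPA, in which p30, the short form of C/EBPα, is the functional isoform. The rule compared the 3 EV libraries given lipopolysaccharide (LPS, 100 ng/mL) for 2 h with the 3 untreated EV libraries, and asked for the result under spike-in scaling and under TMM scaling. All cells had been electroporated with 2 µg of plasmid, sorted for green fluorescent protein 24 h later and left for a further 24 h before treatment, so the untreated libraries carry the electroporation and the sort as well. The EV plasmid encodes the fluorescent protein without C/EBPα. In the same table, p42 and p30 libraries come from KO-52 cells given full-length C/EBPα or more p30 on the same kind of plasmid, with 3 untreated and 3 LPS libraries each, and serve here only to show where the EV response differed. KO-52 is 1 established line, the plasmid is transient, and replicates are individual experiments according to the methods of the study.

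LPS, a component of the outer membrane of Gram-negative bacteria, is sensed by TLR4 together with its partner MD-2 (LY96) and the coreceptor CD14. Adaptors such as MYD88 and TRIF (TICAM1) pass the signal to kinases that free NF-κB from its inhibitors, IκB proteins such as NFKBIA, and to MAP kinases that act on AP-1 and on serum response factor. The first wave of transcripts comprises immediate early genes (EGR, FOS and NR4A families), chemokines and cytokines, and feedback inhibitors such as NFKBIA and TNFAIP3. In myeloid cells its chemokine, cytokine and feedback transcripts are usually well developed after a few hours. The KO-52 libraries with LPS were all taken at 2 h, so an earlier, short rise of immediate early transcripts would not be seen.

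The EV libraries held 21877850 to 29074319 counts on genes and 72753 to 156916 counts on 92 ERCC spike-ins, synthetic RNAs added to the samples as a reference for the amount of cellular RNA. Of 59251 genes listed, 21272 passed the filter on low counts. Spearman correlations of the libraries were 0.976 to 0.987 within the untreated group, 0.989 to 0.991 within the LPS group and 0.959 to 0.987 between the groups. The labelled cell type was checked against its markers. CD34 (476, 496 and 475 untreated, 436, 554 and 476 with LPS) and CEBPA (1890, 2410 and 1190 untreated, 2240, 2810 and 1980 with LPS), in TMM-scaled CPM (counts scaled to a common library size), were present in every library. The coreceptor CD14 was near 0 (0.22, 0.713 and 0.499 CPM untreated, 0.717, 0.738 and 0.69 with LPS), LY96 stood at 1.11 to 2.02 CPM and TLR4 at 14.6 to 26.8 CPM.

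Whether LPS changed the amount of gene RNA relative to the spike-ins was asked. The ratio reports RNA per cell only if spike-ins were added by cell number, which the sources used here do not state. Untreated libraries held 195.8, 201.8 and 190.8 gene counts per spike-in count, and LPS libraries 300.7, 214.5 and 185.3. The 3 untreated libraries lay close together, whereas LPS library 1 stood far above the other 5 and LPS library 3 below all of them, so the groups overlapped. On the log2 scale the means were 7.615 ± 0.0404 and 7.837 ± 0.358 (SD, n = 3 each), a difference of 0.22 that did not exceed the spread (exact permutation test, two-sided, p = 0.4, where 0.1 is the smallest p that 3 against 3 can give). In bulk libraries, fewer cells of a type and less RNA per cell cannot be told apart.

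**Figure D1:**
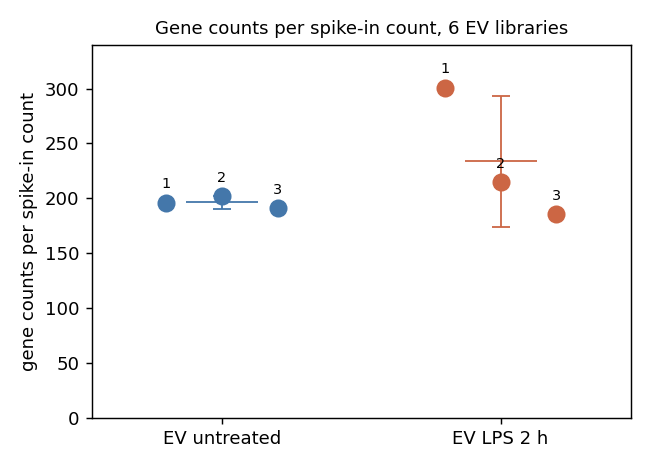
Gene counts per spike-in count (y axis) in the 3 untreated and the 3 LPS EV libraries, each point 1 library with its replicate number, bars the mean and SD. The untreated points lie between 190.8 and 201.8, and LPS library 1 at 300.7 lies apart from the other LPS libraries at 214.5 and 185.3.

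This ratio is part of what separates the scalings. Spike-in scaling sets the spike-ins equal and lets total RNA differ, whereas TMM centres the bulk of genes. The median log2 change over all genes was 0.41 under spike-in scaling and 0.02 under TMM, a shift of 0.39 that fell to 0.20 without LPS library 1. The median was 0.30 with the sum of spike-in counts and 0.27 with spike-ins of 10 or more counts. The shift thus also depends on how the spike-in size factor is estimated.

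With LPS, 1638 genes (7.70% of those tested) rose and 30 (0.141%) fell under spike-in scaling, at an adjusted p below 0.05 (edgeR quasi-likelihood F test, Benjamini-Hochberg over all genes tested, no fold limit). Under TMM, 1728 (8.12%) rose and 1838 (8.64%) fell. The calls shared by both scalings were 1309 rises and 27 falls, and no gene was called in opposite directions. A further 1811 genes fell under TMM alone, and 419 rose under TMM alone, against 329 rises and 3 falls under spike-ins alone. Groups did not overlap between LPS and untreated libraries for 1394 of the rises and 20 of the falls under spike-ins, and for 1559 and 1723 under TMM. The share without overlap over all genes tested is not given here, so these counts do not measure support for the calls. The counts moved with single libraries. Leaving out each EV library in turn gave 159, 2769 and 101 rises without untreated 1, 2 and 3, and 96, 330 and 2893 without LPS 1, 2 and 3, under spike-in scaling. The matching falls under TMM were 417, 3085 and 380, then 1081, 138 and 1432.

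Most of these calls followed the base composition of the transcripts. Among genes with a GC value, the 3574 of lowest GC (29.8 to 41%) had a median log2 change of -0.44 under TMM, with 5 rises and 1134 falls, while the 3563 of highest GC (57.8 to 87.9%) had a median of 0.45, with 889 rises and 5 falls. Under spike-in scaling 972 of the rises lay in the bin of highest GC and 8 in the lowest. The median GC was 48.1% for all genes tested, 58.7% for TMM rises and 39.5% for TMM falls. Across genes, which are not independent replicates, the log2 change had a Spearman correlation of 0.68 with GC and -0.08 with transcript length.

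The same gradient separated libraries within each group. The median deviation of the highest GC bin minus that of the lowest, on the log2 scale against the mean of all 18 KO-52 libraries, was -0.81, -0.18 and -1.42 in the untreated libraries and -0.03, 0.54 and -0.13 in the LPS libraries. Untreated 1 and 3 lay lowest and LPS 2 highest, while LPS 1 and LPS 3 lay near untreated 2. What part the gradient has in the calls was measured with an added fit, chosen after the data were seen, that takes each library's own curve on GC out as an offset. It left 640 rises (3.59% of 17838) and 593 falls (3.32%) under TMM, and 278 rises (1.56%) and 15 falls (0.0841%) under spike-ins. The origin of the gradient was not tested.

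**Figure D2:**
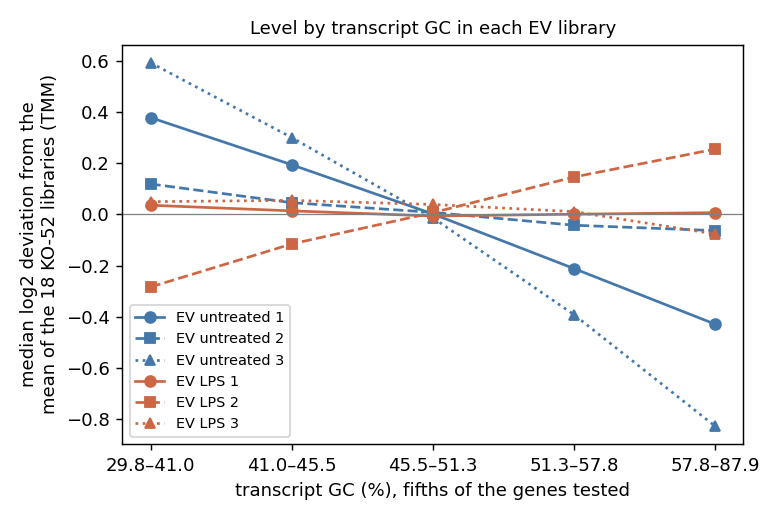
Median log2 deviation from the mean of the 18 KO-52 libraries (y axis) over 5 bins of transcript GC (x axis, low to high) for the 6 EV libraries, 1 line each. Untreated 3 falls most steeply with GC (-1.42 from the lowest to the highest bin), and LPS 2 rises (0.54).

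The genes that stayed called in both scalings, with and without GC offsets, were 154 rises and 13 falls. The falls comprised CXCL8, CCL3, EGR1, EGR2, EGR3, NR4A2, NR4A3, KLF2, CD69, SGK1, HBEGF, IFNE and the pseudogene YAP1P1. Of these, CXCL8, CCL3, EGR1, EGR3 and NR4A2 were called lower in every fit run, each library left out included. In the rising direction PPP1R16B, TNFRSF12A, TNFAIP8L3, RN7SL1, IPCEF1, MYCNOS and PARS2 had that property. IFNE, IPCEF1 and PARS2, and HIVEP2 and BMF below, were singled out after their values were seen. Under spike-ins YAP1P1 lost its call in all 6 fits that left out a library, and IFNE lost it without untreated 1. IFNE rested on 17, 2 and 8 counts untreated and none with LPS.

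Among called genes with a mean of at least 50 counts and no overlap between groups, the steepest fall was that of CXCL8 (chr4:73740519-73743716, + strand, hg38), which encodes the neutrophil chemoattractant interleukin-8. It stood at 237, 344 and 734 CPM (TMM-scaled) in the untreated libraries and at 57.9, 36.4 and 73.8 CPM with LPS. All LPS libraries lay below all untreated ones. The log2 change was -2.55 ± 0.30 (SE) under spike-ins (adjusted p = 3.4e-13), -2.97 ± 0.35 under TMM (adjusted p = 0.00015) and -2.24 with GC offsets under TMM (adjusted p = 4.2e-06). Leaving out each EV library gave -2.84 to -2.01 under spike-ins. CCL3, a chemokine for monocytes, fell from 8.51, 25.7 and 33.8 CPM to 3.5, 5.98 and 5.55 CPM (log2 -1.82 ± 0.32, adjusted p = 3.8e-05, and -2.17 ± 0.36, adjusted p = 0.0018). CCL3 shares sequence with near-identical paralogs and lies opposite CCL3-AS1, so its value is uncertain. CXCL2, another neutrophil chemoattractant, fell under TMM only, from 14.7, 21.7 and 34 CPM to 8.56, 11 and 12.3 CPM (log2 -1.14 ± 0.22, adjusted p = 0.0038; spike-ins -0.77, adjusted p = 0.097).

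The early growth response genes EGR1, EGR2 and EGR3, zinc finger factors made within minutes of a mitogenic or stress signal, all fell. EGR1 (chr5:138465479-138469303, + strand) stood at 68.2, 245 and 340 CPM untreated and at 37.9, 52.3 and 64.9 CPM with LPS (log2 -1.71 ± 0.31, adjusted p = 4.5e-05, under spike-ins and -2.07 ± 0.33, adjusted p = 0.0015, under TMM). EGR3 stood at 19.2, 71.1 and 128 CPM against 5.87, 13.4 and 16.3 CPM (log2 -2.29 ± 0.32, adjusted p = 1.2e-08, and -2.61 ± 0.44, adjusted p = 0.0019). In TMM-scaled CPM the groups did not overlap for either gene, but the untreated libraries spread widely, with untreated 1 closest to the LPS level. In spike-in scaled CPM they overlapped for EGR1, with untreated 1 at 63 and LPS 3 at 64.3. The spike-in fit took the spread from the trend over genes, so a gene's own spread did not enter its adjusted p there. EGR2 stood at 3.44, 12.7 and 21.3 CPM against 1.84, 3.02 and 3.14 CPM (log2 -1.86 ± 0.34, adjusted p = 7e-05, and -2.21 ± 0.40, adjusted p = 0.0031), and without untreated 3 its adjusted p under spike-ins was 0.07. Its groups overlapped in spike-in scaled CPM (untreated 1 at 3.17, LPS 2 at 3.43).

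The NR4A orphan nuclear receptors, also immediate early products, moved the same way. NR4A2 stood at 29.5, 57.4 and 130 CPM untreated and at 10.8, 10.8 and 13.9 CPM with LPS (log2 -2.20 ± 0.32, adjusted p = 5.9e-08, and -2.61 ± 0.36, adjusted p = 0.00058). NR4A3 fell in both scalings (log2 -1.14 and -1.47, adjusted p = 0.018 and 0.028) and lost the call under both without untreated 3 or LPS 1. NR4A1 fell under TMM only (log2 -1.16, adjusted p = 0.024; -0.81, adjusted p = 0.076, under spike-ins). KLF2, a factor of quiescence, rested on few reads (24, 23 and 28 counts untreated, 6, 0 and 6 with LPS).

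CD69, an early activation marker of the cell surface, stood at 118, 163 and 294 CPM untreated and at 38.1, 32.3 and 47.3 CPM with LPS (log2 -1.88 ± 0.31, adjusted p = 5.8e-06, and -2.29 ± 0.25, adjusted p = 0.00012). SGK1, a kinase induced by serum and glucocorticoids, stood at 48.3, 91.9 and 159 CPM against 21.8, 29.2 and 39.4 CPM (log2 -1.37 and -1.73, adjusted p = 0.0026 and 0.0014). HBEGF, an EGF receptor ligand, stood at 10.7, 18.5 and 20.9 CPM against 5.56, 5.16 and 6.83 CPM (log2 -1.13 and -1.51, adjusted p = 0.019 and 0.00035). In all of these the highest LPS library lay below the lowest untreated library. Without untreated 3, SGK1 and HBEGF lost the call under spike-ins (adjusted p = 0.18 and 0.17 at the highest over the libraries left out), as HBEGF did also without LPS 1 or LPS 2.

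Further falls named by the rule were IL7, a lymphoid growth factor (9.04, 8.64 and 12.1 CPM against 2.73, 2.07 and 2.97), and RGS1, a brake on G protein signalling (10.1, 14.3 and 22.2 CPM against 3.5, 3.65 and 6.72). Their log2 changes under spike-ins were -1.54 and -1.39 (adjusted p = 0.0051 each), and both lost that call without untreated 3 or LPS 2. With GC offsets they stayed called under TMM (adjusted p = 0.00084 and 0.008) but not under spike-ins (adjusted p = 0.078 and 0.096). IL7 overlaps ZC2HC1A on the other strand. The uncharacterised LOC124901421 (log2 -1.46) and the pseudogenes YAP1P1 (log2 -1.43) and BTF3P3 (log2 -1.12) completed the 12 under spike-ins, the last 2 uncertain because reads of the parent genes can map there. Under spike-ins LOC124901421 and BTF3P3 each lost the call in 4 of 6 fits that left out a library, and YAP1P1 in all 6.

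**Figure D3:**
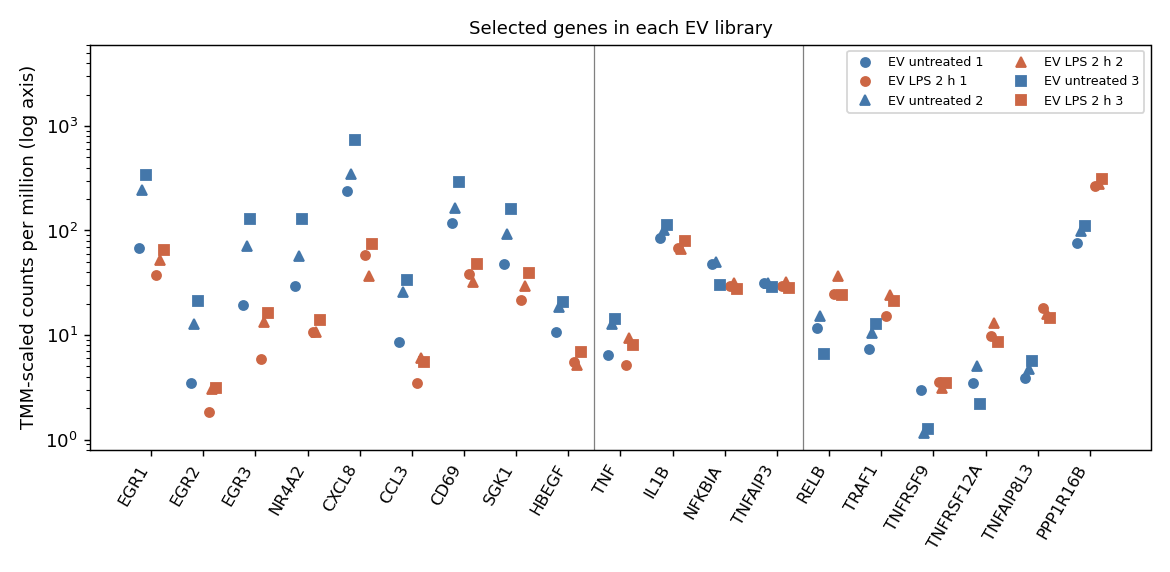
TMM-scaled CPM (log y axis) of selected genes in each of the 6 EV libraries, blue untreated and orange LPS, with 1 symbol per replicate number. From EGR1 to HBEGF every LPS point lies below every untreated point, TNF, IL1B, NFKBIA and TNFAIP3 in the middle panel sit close together or overlap, and from RELB to PPP1R16B every LPS point lies above.

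Sequence before the start of CXCL8 and EGR1 is shown because both were called lower in every fit run. Each is from hg38, + strand, up to 250 bases before the start of the GENCODE v44 canonical transcript, ending before the first annotated start of the gene. CXCL8 is chr4:73740319-73740518 and EGR1 chr5:138465229-138465478. Capitals mark letters matching TGANTCA (AP-1) in CXCL8 and the CArG-like pattern of CC, any 3 bases, T, any 2 bases and GG (the kind of element serum response factor binds) in EGR1.
CXCL8: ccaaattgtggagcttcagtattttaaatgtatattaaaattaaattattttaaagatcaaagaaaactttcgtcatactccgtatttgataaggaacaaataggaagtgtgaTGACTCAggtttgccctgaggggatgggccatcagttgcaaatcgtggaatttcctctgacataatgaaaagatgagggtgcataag
EGR1: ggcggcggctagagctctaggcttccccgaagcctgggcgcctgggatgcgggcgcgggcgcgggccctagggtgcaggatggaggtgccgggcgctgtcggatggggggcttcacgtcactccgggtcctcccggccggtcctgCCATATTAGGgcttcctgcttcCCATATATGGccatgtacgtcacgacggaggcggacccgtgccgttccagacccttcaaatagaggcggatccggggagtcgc
The CXCL8 match lies 137 to 131 bases before the start, and those of EGR1 at 105 to 96 and 83 to 74. The NF-κB and C/EBP letters given below were also searched in CXCL8 and had no match. A match of letters is a description and not a bound site. Fixed letters miss variants of a site, here and in the shares below, so the lack of a match does not show that a site is absent.

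Over a window of 250 bases before to 50 after the start, on both strands, the NF-κB pattern of GGG, any 3 bases and TTCC stood in 6.8% of 17837 genes tested with a window and in 6.98% of the 1147 such genes that rose under both scalings. For TGANTCA the shares were 4.94% and 3.92%, for the cyclic AMP element TGACGTCA 2.6% and 2.27%, for the C/EBP letters TTGCNNAA 8.14% and 5.41%, and for the CArG-like pattern, whose few fixed letters are common, 53.3% and 58.9%. Of 22 genes that fell under both scalings and had a window, 3, 2, 1, 4 and 13 held these letters in that order. The median GC of the windows was 63% for all genes, 68% for rises and 55.2% for falls.

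Among NF-κB subunits, RELB and NFKB2, the pair of the non-canonical arm of the pathway, rose and the rest did not pass the test. The share of all genes that rose was 7.70% under spike-ins and 8.12% under TMM. RELB (chr19:45001461-45038192, + strand) stood at 11.7, 15.1 and 6.65 CPM untreated and at 24.7, 36.4 and 23.9 CPM with LPS (log2 1.72 ± 0.32, adjusted p = 0.0001, under spike-ins and 1.35 ± 0.22, adjusted p = 0.0016, under TMM). It stayed called with GC offsets (0.83, adjusted p = 0.00022, under TMM) and without each EV library. NFKB2 stood at 11.9, 15.6 and 12 CPM against 22.5, 28.7 and 19.9 CPM (log2 1.24 and 0.85, adjusted p = 0.0078 and 0.004), and with GC offsets its adjusted p was 0.065 under TMM and 0.12 under spike-ins. Groups did not overlap for either gene. NFKB1 had log2 changes of 0.65 and 0.26 (adjusted p = 0.15 and 0.065).

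Of 14 feedback inhibitors tested, NFKBID, NFKBIE and TRAF1 rose under spike-ins, where 7.70% of all genes rose, and none fell. Under TMM those 3 rose and NFKBIA, NFKBIZ and BIRC2 fell, where 8.12% of all genes rose and 8.64% fell. Their median log2 change was 0.66 under spike-ins and 0.28 under TMM, against 0.41 and 0.02 for all genes. NFKBIA stood at 48.1, 49.4 and 30 CPM untreated and at 29.7, 31.7 and 27.8 CPM with LPS, with the lowest untreated library inside the LPS range (log2 -0.12, adjusted p = 0.85, under spike-ins and -0.52, adjusted p = 0.041, under TMM, a call lost in 5 of 6 fits that left out a library). TNFAIP3, the A20 deubiquitinase, stood at 31.5, 31.5 and 28.9 CPM against 29.3, 32.3 and 28.3 CPM (log2 0.37 ± 0.30 and -0.03 ± 0.11, adjusted p = 0.46 and 0.88). TRAF1, an adaptor of TNF receptors and an NF-κB target, stood at 7.36, 10.4 and 12.8 CPM against 15.3, 23.9 and 21.1 CPM (log2 1.34 and 0.98, adjusted p = 0.0036 and 0.0038), and stayed called with GC offsets (adjusted p = 0.031 under TMM, 0.03 under spike-ins). Under spike-ins its adjusted p without untreated 1 was 0.091.

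Of 21 cytokine transcripts tested, LTB and IL1RN rose under spike-ins, where 7.70% of all genes rose. Under TMM IL1RN rose and IL1B and IL18 fell, where 8.64% of all genes fell (median log2 0.10 and -0.28). The shares of cytokines called were thus near those of all genes. TNF stood at 6.39, 12.8 and 14.2 CPM untreated and at 5.2, 9.33 and 8.1 CPM with LPS, overlapping (log2 -0.21 ± 0.31, adjusted p = 0.73, and -0.56 ± 0.25, adjusted p = 0.13), and with GC offsets under TMM it was called lower (-0.81, adjusted p = 0.049). IL1B stood at 85.6, 102 and 112 CPM against 67.5, 66.4 and 79.9 CPM (log2 -0.09, adjusted p = 0.88, and -0.48, adjusted p = 0.026, a call lost in 3 of 6 fits that left out a library). IL1RN, the antagonist of the interleukin-1 receptor, stood at 3, 3.74 and 4.7 CPM against 5.83, 6.53 and 7.96 CPM (log2 1.20 and 0.83, adjusted p = 0.013 and 0.018). IL6 had 6 counts in untreated 3 and none in the other EV libraries. Among 15 chemokines, CXCL8 and CCL3 fell under spike-ins, where 0.141% of all genes fell. CXCL2 fell in addition under TMM, and none rose (median log2 -0.25 under spike-ins and -0.66 under TMM). CCL2, CCL5 and CXCL10 had log2 changes of -0.25, 0.47 and -0.48 under spike-ins and -0.62, 0.11 and -0.89 under TMM, none past the test.

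Of 21 immediate early genes, none rose and 6 fell under spike-ins (EGR1, EGR2, EGR3, NR4A2, NR4A3, KLF2), where 0.141% of all genes fell. Under TMM, where 8.64% of all genes fell, 9 of the 21 fell, with NR4A1, KLF10 and PLK2 in addition. Their median log2 change was 0.10 under spike-ins and -0.26 under TMM. IER3 had log2 changes of 0.59 and 0.23 (adjusted p = 0.23 and 0.53). The 14 AP-1 members gave no call under spike-ins and 2 falls under TMM, ATF2 and FOSL2 (median 0.31 and -0.07), a share to set beside that 8.64%. With GC offsets under TMM 7 AP-1 members were called lower and none higher, where 3.32% of all genes with a GC value were called lower. FOS, FOSB, JUN and JUNB were among these 7. With GC offsets under spike-ins those named members were not called (adjusted p = 0.21, 0.12, 0.67 and 0.6). In that fit 0.0841% of all genes with a GC value were called lower. FOS stood at 6.35, 20.4 and 20.5 CPM untreated and at 6.72, 12.1 and 7.72 CPM with LPS (log2 -0.46 and -0.83, adjusted p = 0.36 and 0.054). FOSB (log2 -0.51 and -0.87), JUN (0.11 and -0.27), JUNB (0.29 and -0.09) and ATF3 (-0.02 and -0.38) did not pass the test in either scaling.

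Of 16 phosphatases and RNA decay factors, ZC3H12A, an RNase that degrades cytokine messages, rose (log2 1.08 and 0.70) and PDE4B, a cyclic AMP phosphodiesterase, fell (log2 -1.03 and -1.42) in both scalings. Under TMM DUSP1, SPRY2 and SPRED1 fell too, where 8.64% of all genes fell. Under spike-ins 7.70% of all genes rose and 0.141% fell. SPRY2 and SPRED1 each lost the TMM call in 5 of 6 fits that left out a library. In such fits under spike-ins PDE4B lost its call in 5 and ZC3H12A in 4. DUSP1, a MAP kinase phosphatase, stood at 10.6, 11.7 and 11.5 CPM against 5.11, 7.75 and 6.59 CPM (log2 -0.79, adjusted p = 0.0038, and -0.43, adjusted p = 0.41, under spike-ins). ZFP36 was listed at 0 in every EV library. The receptor and adaptor list gave 4 rises of 22 under spike-ins (TICAM1, TOLLIP, IKBKG, IRAK2) and 6 rises and 1 fall under TMM, with TRAF3 and TIRAP higher and IRAK4 lower (median 0.64 and 0.23). Over all genes 7.70% rose under spike-ins, and 8.12% rose and 8.64% fell under TMM. With GC offsets under TMM 1 of the 22 was called, where 3.59% of all genes with a GC value rose and 3.32% fell. TLR4 (log2 0.14 and -0.30), CD14 (0.95 and 0.58), LY96 (0.27 and -0.17) and MYD88 (0.75 and 0.35) passed in neither scaling.

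The rises called in every fit lay outside the lists. Of 33 list members that rose under spike-ins, RELB alone kept the call in all 6 fits that left out an EV library, and 28 kept it in 2 or fewer, most often lost without untreated 1, untreated 3, LPS 1 or LPS 2. Under TMM 7 of 35 kept it in all 6 (RELB, NFKB2, TRAF1, ZC3H12A, KIT, SESN2 and FDPS). Of the list members that fell, 6 of 10 under spike-ins and 17 of 54 under TMM kept the call in all 6. PPP1R16B (chr20:38805697-38923024, + strand), a membrane-anchored regulatory subunit of protein phosphatase 1, stood at 76, 99.4 and 111 CPM untreated and at 267, 281 and 311 CPM with LPS (log2 1.98 ± 0.31, adjusted p = 4.5e-07, and 1.58 ± 0.19, adjusted p = 0.00015). TNFAIP8L3, a carrier of phosphoinositides, stood at 3.92, 4.72 and 5.66 CPM against 18.2, 15.9 and 14.6 CPM (log2 2.20 and 1.77, adjusted p = 3.3e-07 and 0.00015). TNFRSF12A, the receptor of the cytokine TWEAK, stood at 3.48, 5.04 and 2.2 CPM against 9.82, 13.1 and 8.55 CPM (log2 1.94 and 1.56, adjusted p = 3e-05 and 0.00083). In each, the LPS libraries lay close together and well above the untreated ones. TNFRSF12A overlaps CLDN6 on the other strand, and whether counting used strand is not stated.

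IPCEF1, HIVEP2 and BMF (41.4, 46.6 and 54.7% GC) also rose, of which IPCEF1 alone was called in every fit. HIVEP2 lost its spike-in call without untreated 1 (adjusted p = 0.053). IPCEF1, an interaction partner of cytohesin exchange factors, stood at 29.4, 22.2 and 30.1 CPM against 71, 51.9 and 69.3 CPM (log2 1.66 and 1.23). HIVEP2, a zinc finger protein that binds κB-like DNA, stood at 21.7, 22.3 and 34.4 CPM against 51, 50.5 and 56.8 CPM (log2 1.42 and 1.01). BMF, a proapoptotic BH3-only protein, stood at 21, 24.1 and 21.2 CPM against 36.8, 49.1 and 51.1 CPM (log2 1.41 and 1.05). None of these overlapped between groups, and each stayed called with GC offsets under both scalings. PARS2, the mitochondrial prolyl-tRNA synthetase, had log2 changes of 1.66 and 1.28.

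Other rises named by the rule carried more doubt. RN7SL1, the RNA of the signal recognition particle, stood at 13, 19.8 and 3.95 CPM against 44.2, 57.1 and 44.5 CPM (log2 2.35 and 1.99), but it is not normally polyadenylated and has near-identical copies in the genome. MYCNOS (log2 1.92 and 1.53), UCKL1-AS1 (2.04 and 1.62), TMEM249 (1.94 and 1.58) and SLFNL1 (1.86 and 1.49) overlap genes on the other strand, and NPEPL1 (2.13 and 1.74) shares exons with the readthrough STX16-NPEPL1. ERICD had 1.89 and 1.48. The uncharacterised LOC112268460, LOC105369325 and LOC101929749 had log2 changes of 2.23, 2.04 and 1.96 under spike-ins.

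Of 41 interferon-stimulated genes, IRF7, IRF9 and OASL rose under spike-ins, a share near the 7.70% of all genes, and IRF9 rose and DDX60 fell under TMM (median 0.34 and -0.05). IFIT1 had log2 changes of 0.01 and -0.37, ISG15 of 0.62 and 0.25 and IFNB1 of -0.25 and -0.57, none past the test. Of 14 surface genes, TNFRSF9 (4-1BB) rose in both scalings, from 3, 1.16 and 1.25 CPM to 3.54, 3.14 and 3.48 CPM (log2 1.31 and 0.91), CD69 fell in both, and ICAM1 rose under TMM (log2 0.50, adjusted p = 0.044, and 0.85, adjusted p = 0.061, under spike-ins). Of all genes, 7.70% rose and 0.141% fell under spike-ins, and 8.12% rose and 8.64% fell under TMM. TNFRSF9 lost its call without untreated 3 or LPS 1 under spike-ins and in 5 of 6 fits that left out a library under TMM. ICAM1 lost its TMM call in 4 of 6 such fits, and its groups overlapped in TMM-scaled CPM (untreated 2 at 15.2, LPS 1 at 14.2). With GC offsets under TMM ICAM1 was not called (0.20, adjusted p = 0.43). CISH rose among 7 SOCS and STAT3 genes in both scalings (log2 1.01 and 0.59), while SOCS3 did not pass (-0.97 and -1.29).

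Of 15 stem and progenitor genes, KIT, HOXA9, GATA2 and GFI1 rose in both scalings, and ERG and RUNX1 fell under TMM (median 0.40 and 0.02). Of all genes, 7.70% rose under spike-ins, and 8.12% rose and 8.64% fell under TMM. KIT, the receptor of stem cell factor, stood at 16.6, 13.6 and 18.1 CPM against 24.7, 22.9 and 24.7 CPM (log2 0.99 and 0.58, adjusted p = 0.035 and 0.012; 0.84, adjusted p = 0.00012, with GC offsets under TMM). HOXA9, a homeobox factor of progenitors, stood at 23.1, 27.7 and 16.4 CPM against 36.1, 41.2 and 32.5 CPM (log2 1.10 and 0.71). Under spike-ins KIT lost its call in 5 of the 6 fits that left out a library, and HOXA9 in 4. The 7 C/EBP genes gave no call under spike-ins and 1 fall under TMM (CEBPZ). CEBPA had log2 changes of 0.75 and 0.36 (adjusted p = 0.052 and 0.16), CEBPB of 0.29 and -0.11. Among 17 neutrophil granule genes SRGN fell under TMM and nothing passed under spike-ins, with MPO at 0.70 and 0.32.

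Calls in the stress and housekeeping lists differed between the scalings. Of 12 heat shock genes none passed under spike-ins, and HSPH1, HSPA8, HSP90AA1 and DNAJA1 fell under TMM (median 0.04 and -0.36), where 8.64% of all genes fell. HSPH1 stood at 443, 416 and 513 CPM against 276, 268 and 298 CPM (log2 -0.70, adjusted p = 0.00058, under TMM and -0.30, adjusted p = 0.54, under spike-ins). Of 21 cholesterol genes 10 fell under TMM, where 8.64% of all genes fell, among them INSIG1 (log2 -0.61), while FDPS rose in both scalings and ABCA1 rose under spike-ins (median 0.12 and -0.26). With GC offsets under TMM 5 heat shock and 7 cholesterol genes were called lower, as were 3.32% of all genes with a GC value. Of 16 endoplasmic reticulum genes XBP1, HSPA5, DNAJC3 and DNAJB9 fell under TMM, where 8.64% of all genes fell, and none passed under spike-ins. Of 15 ATF4 targets ASNS, ATF5 and SESN2 rose in both scalings (ASNS log2 1.69 and 1.30 at 0.661 to 2.58 CPM). Over all genes 7.70% rose under spike-ins and 8.12% under TMM.

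Of 28 replication and mitosis genes E2F1, E2F2 and MCM5 rose under spike-ins, and 6 rose and 4 fell under TMM, with none called once GC offsets were used. Over all genes 7.70% rose under spike-ins, and 8.12% rose and 8.64% fell under TMM. The 13 replication histones, 13 mitochondrially encoded genes and 35 ribosomal protein genes gave no call in either scaling (median under spike-ins 0.33, 0.19 and 0.46). Of 13 housekeeping genes none passed under spike-ins, and HPRT1 (log2 -0.67) and TFRC (-0.38) fell under TMM, where 8.64% of all genes fell. RPL38 had 0.29 and -0.13.

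**Figure D4:**
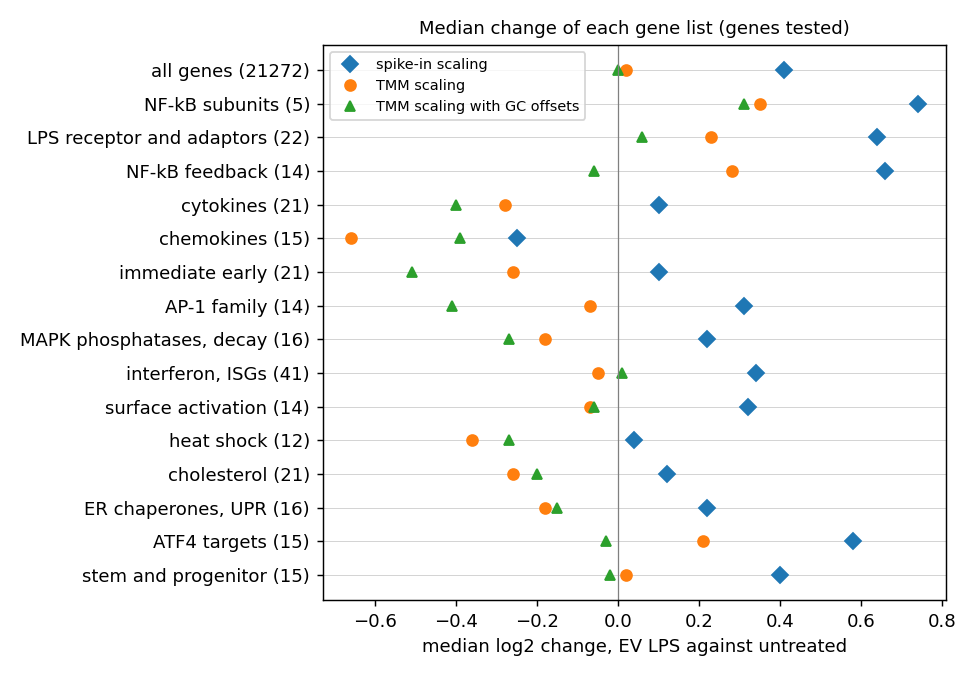
Median log2 change with LPS (x axis) of 15 gene lists and of all genes tested (y axis, genes tested in parentheses) under spike-in scaling (diamonds), TMM (circles) and TMM with GC offsets (triangles). Chemokines lie lowest under spike-ins and TMM (-0.25 and -0.66), and the NF-κB subunits lie above all genes in each (0.74, 0.35 and 0.31 against 0.41, 0.02 and 0.00).

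Markers of other cell types were summed in each library. Summed TMM-scaled CPM of 9 monocyte and macrophage markers was 44 to 55.2 untreated and 45.4 to 63.4 with LPS, with none called. The sums were 838 to 892 and 908 to 1140 for 6 mast cell and basophil markers (TPSB2 rose under spike-ins), 65.6 to 96.8 and 107 to 137 for megakaryocyte markers (ITGA2B rose in both scalings, GP1BA under TMM), and 5.74 to 5.93 and 5.41 to 6.45 for 10 erythroid markers, of which 4 were at 0. T and NK cell markers (85.3 to 130 and 109 to 123) and epithelial or stromal markers (117 to 124 and 115 to 136) gave no call. The 8 myeloid blast markers summed to 2410 to 3940 and 3530 to 4670, with ANPEP and KIT higher in both scalings. These calls stand beside the 7.70% of all genes that rose under spike-ins and 8.12% under TMM. The megakaryocyte sum and the mast cell and basophil sum were higher in every LPS library than in every untreated one, and their part in the results was not tested.

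The EV response was set against that of p42 and p30 cells in the same fit, with the difference of the 2 LPS changes tested gene by gene under spike-in scaling. Both differences use the same EV libraries. The change differed between p42 and EV in 43 genes (0.202% of those tested), smaller or more negative in EV for 42 of them and larger for NTN3. TNF changed by a log2 of 3.96 in p42 cells against -0.21 in EV (difference 4.17 ± 0.46, adjusted p = 2.2e-16). IL1B changed by 3.41 against -0.09 (adjusted p of the difference 8.7e-14), and TNFAIP3 by 2.83 against 0.37 (adjusted p = 2.1e-05). CXCL8 rose in p42 cells, by 1.51, where it fell in EV cells, and CCL3 (3.28 against -1.82) and EGR2 (2.29 against -1.86) showed the same opposite calls. Under TMM the rise of CXCL8 in p42 cells did not pass (1.26, adjusted p = 0.061), while those of CCL3 and EGR2 did. None of these genes was called higher in EV.

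Falls of EGR1, EGR3, NR4A2 and HBEGF were not told apart from p42. EGR3 and NR4A2 were called lower in p42 cells too, with log2 changes of -1.77 and -1.16. The differences, p42 minus EV, were 1.12 ± 0.43 for EGR1, 0.52 ± 0.44 for EGR3, 1.04 ± 0.44 for NR4A2 and 0.19 ± 0.45 for HBEGF, each with an adjusted p of 0.98 or 1. RELB changed by 1.40 in p42 cells (difference -0.32 ± 0.44, adjusted p = 1).

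Against p30, RN7SL1 alone differed (0.00470% of genes tested), at 0.24 in p30 cells against 2.35 in EV (adjusted p = 0.047), and under TMM no gene did, with 1042 genes at an unadjusted p under 0.05 and 748 under spike-ins. DESeq2 called none, and no gene differed once untreated 1 or 3 or LPS 1 or 2 was left out. The p30 cells had 14 falls of their own under spike-ins, and the values of EGR1 (-2.20), EGR3 (-2.77), NR4A2 (-1.98), CXCL8 (-1.54), CD69 (-1.68), SGK1 (-1.42) and HBEGF (-1.62) were each called lower there. Rises called under spike-ins numbered 3 in p30 cells and 150 in p42 cells, against 1638 in EV. PPP1R16B (1.09, adjusted p = 0.2), TNFAIP8L3 (1.13, adjusted p = 0.31) and TNFRSF12A (1.01, adjusted p = 0.52) were not called in p30 cells. Under TMM 41 genes rose and 57 fell in p30 cells. PPP1R16B (0.99, adjusted p = 0.014) and TNFAIP8L3 (1.01, adjusted p = 0.015) were among those rises. Under spike-ins TNF (0.56), IL1B (0.24), NFKBIA (0.09) and TNFAIP3 (0.58) passed in neither EV nor p30 cells. Under TMM TNFAIP3 was called higher in p30 cells (0.49, adjusted p = 0.046), while IL1B and NFKBIA were called lower in EV as given above. That a difference missed the threshold does not show that EV and p30 cells respond alike.

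**Figure D5:**
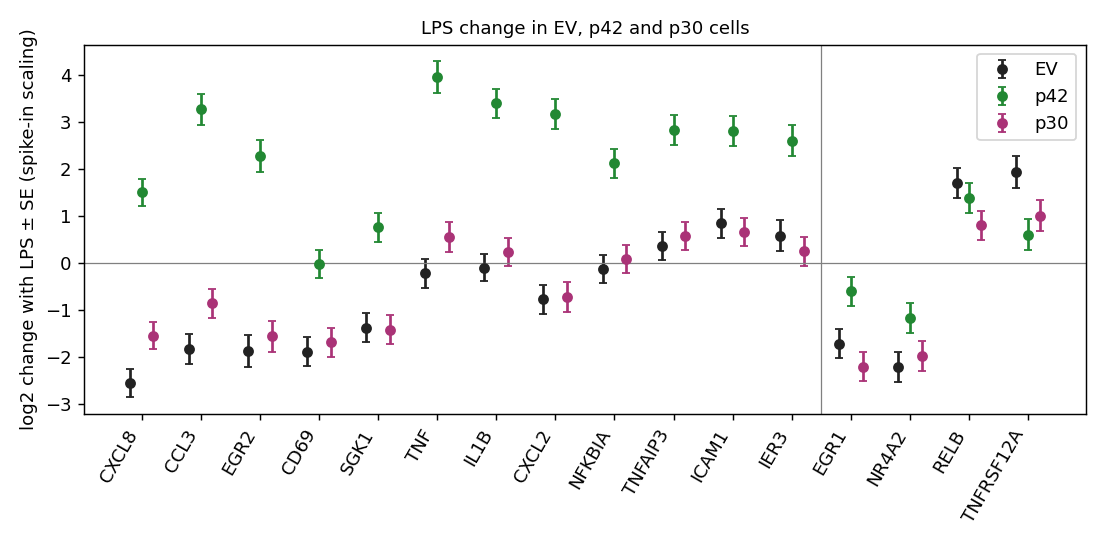
Log2 change with LPS ± SE (y axis, spike-in scaling) in EV, p42 and p30 cells for selected genes. Left of the line are genes whose change differed between p42 and EV, such as TNF (3.96 against -0.21) and CCL3 (3.28 against -1.82), and right of it genes whose change was not shown to differ.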

How the data were processed

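Poly-A RNA-seq was analysed for 6 EV libraries of KO-52 cells, fitted together with the 12 p42 and p30 libraries of the same table. The deposited values are raw counts of reads per gene; the authors aligned reads with Bowtie2 2.4.4, an unspliced aligner, to hg38, and counted them on NCBI RefSeq genes with featureCounts of Subread 2.0.3 (tools and versions per the submitters' processing notes). Libraries were stranded, but the strand setting of counting is not given in the sources used here. Depth was 21877850 to 32414233 gene counts per library over the 18. Replicates are individual experiments per the methods. Under TMM p-values measure the spread between these, moderated across genes (prior degrees of freedom 8.98). Under spike-ins the prior degrees of freedom were infinite, so each gene's spread was taken from the trend over genes. A gene's own spread between replicates did not enter those p-values, and a small one can go with overlapping groups.

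Low genes were removed by filterByExpr with the 6 groups as design, and the 92 spike-ins were left out of tests and library sizes. Size factors came from the spike-ins (the size factor estimate of DESeq2 1.42.0) or from TMM. The two-sided quasi-likelihood F test of edgeR 4.0.16 in R 4.3.3 was run with 1 coefficient per group and no covariate. Spike-in scaling is the study's stated normalization for these libraries. P-values were adjusted by Benjamini-Hochberg over all genes tested, and a call is an adjusted p under 0.05. Adjusted p values in the text come from this test. CPM are counts divided by the scaled library size. The difference of 2 LPS changes was an interaction contrast. Scripts were tested on simulated data.

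GC offsets, chosen after seeing the data, are lowess curves (span 0.3) of each library's log2 deviation on the GC of the GENCODE v44 canonical transcript, centred on their median, for the 17838 genes tested (83.9%) with a value. Promoter windows were read from the hg38 genome supplied, since the promoter table supplied is for mouse. Overlaps of genes were taken from GENCODE v44.

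The genes named are the 12 largest rises and 12 largest falls under each scaling, among called genes whose mean over the EV libraries reached 50 counts and whose groups did not overlap, plus a list of LPS response, lineage and reference genes given whether called or not, and list members where called. The 23 gene lists and 8 marker lists were written from general knowledge; 1 marker list and a few single items are not reported here. The comparison, members and lists were chosen with earlier results of these data known. Labels of the p42 and p30 LPS columns give the group only, so those replicates carry no number. Alternatives were DESeq2, RLE, TMM, 2 other uses of the spike-ins, no filter, only the EV libraries, a fold limit, the replicate number as a block and each EV library left out.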

Additional observations from a re-analysis of the deposited data

Results flagged for a closer look

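Under spike-in scaling the LPS change differed between p42 and EV cells in 43 genes by the interaction contrast (edgeR quasi-likelihood F test, adjusted p under 0.05). Among the genes named here, the log2 change of p42 cells minus that of EV cells was 5.1 for CCL3, 4.17 for TNF, 4.14 for EGR2, 4.06 for CXCL8, 3.94 for CXCL2 and 3.5 for IL1B. It was 2.64 for CXCL10, 2.46 for TNFAIP3, 2.26 for NFKBIA, 2.24 for CCL2, 2.14 for SGK1, 2.01 for IER3, 1.97 for ICAM1 and 1.87 for CD69. For IL6 the fitted difference was 9.18, but EV cells had 6 counts in a single library, so the size of that value depends on the fit. Under TMM the differences of CXCL10 (adjusted p = 0.36) and IL6 (adjusted p = 0.13) did not pass the same test, whereas those of the other genes named in this paragraph did.

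The LPS change differed between p30 and EV cells in 1 gene, RN7SL1, with a log2 difference of -2.11 for p30 minus EV. Both sets of differences share the 6 EV libraries.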

How the results depend on the processing

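Under spike-in scaling 1638 genes rose and 30 fell. Rises and falls, in that order, were 1040 and 23 with no filter, 3262 and 46 with only the 6 EV libraries, 1778 and 25 with DESeq2 (1650 adjusted p missing), 368 and 24 with the sum of spike-in counts, 231 and 22 with spike-ins of 10 or more counts, 1728 and 1838 with TMM, 1648 and 2171 with RLE, and 278 and 15 with GC offsets. Leaving out each EV library gave 96 to 2893 rises and 7 to 39 falls, and with GC offsets 19 to 421 and 8 to 16. Under TMM 1728 rose and 1838 fell, 364 and 169 beyond a log2 of 1, 2275 and 2432 with DESeq2, 1816 and 1938 with no filter, 314 and 531 with only the EV libraries, and 640 and 593 with GC offsets. Leaving out each library gave 295 to 3537 and 138 to 3085, and with GC offsets 248 to 679 and 167 to 574. Each of the 6 EV libraries, left out, moved at least 1 of these counts by over 1.5 times, and the cause was not tested. Replicate numbers were not taken to pair the libraries, since same-numbered deviations correlated at 0.06, 0.56 and 0.42 over all genes under TMM, and LPS 1 correlated better with untreated 3 (0.18). Over genes with a mean of 200 counts or more they correlated at 0.13, 0.79 and 0.66, with LPS 1 and untreated 3 at 0.32, so the pairing is not settled. A replicate block gave 2029 and 32 under spike-ins and 2941 and 2618 under TMM, 193 and 14 and 754 and 659 with GC offsets, and 4619 and 109 and 2667 and 3117 with only the EV libraries. Genes differing between p42 and EV numbered 70 under TMM, and between p30 and EV 0 under TMM and DESeq2 and 0 to 3 with each EV library left out. The difference in gene counts per spike-in count and the shift of the median gene moved by less than the spread. Signs turned between the scalings for some genes called lower under TMM alone, among them RUNX1, IRAK4, HSPA5, SPRY2 and TFRC, and for some called in neither, such as TLR4, LY96, JUN, JUNB and CEBPB, and GC offsets turned others. The spread of the spike-in ratio among LPS libraries and the GC gradient among untreated libraries limit statements on small changes, and genes with few counts, such as KLF2, IL6 and CD14, limit statements on themselves.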
